A study of Mus musculus with 6 samples.

Results

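Beta cells and delta cells sorted from the same mouse islets were compared across genes. The comparison uses 4 libraries of polyadenylated RNA, 2 of beta cells and 2 of delta cells. The genes were those at 1 RPKM (reads per kilobase of transcript per M reads) or more in at least 2 of these 4 libraries, 12414 of the 46932 gene symbols in the table. The question is which genes separate the insulin-making from the somatostatin-making cell of the islet.

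All animals were adult mice that carried the same 3 transgenes: a nuclear mCherry driven by the Ins1 promoter (mIns1-H2b-mCherry), a Cre recombinase driven by the Sst promoter (Sst-cre), and a floxed YFP allele that Cre switches on. Beta cells were sorted as mCherry-positive and delta cells as YFP-positive, and the gates are not given in the sources used here. YFP is permanent once switched on, so it marks cells that make somatostatin and cells whose ancestors did. The islets came from pools of 10 to 12 animals of 1 sex, were kept in culture overnight and were dissociated with trypsin before the sort, so each group has 1 library from a male pool and 1 from a female pool. Age and strain are not given in the sources used here. No label names separate cultures beyond these pools. The fit takes out the difference between the male and the female pool that the groups share. The p-values therefore measure how far the differences between groups vary between the 2 pools, and not the full spread between the libraries of a group. The series also holds 2 libraries of double-positive cells, called transdifferentiated in the labels, which entered the fit only to estimate that variation. The series' text calls YFP a lineage label of delta cells, but in 1 place it gives alpha cells as the origin of the double-positive cells and sets the word alpha beside Sst-cre; the groups here follow the sample labels.

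Beta cells release insulin when glucose metabolism raises the ratio of ATP to ADP, closes ATP-sensitive potassium channels and lets calcium enter. Delta cells release somatostatin, which acts on neighbouring beta and alpha cells through inhibitory G protein-coupled receptors. Delta cells are known to extend short processes between other islet cells, to respond to ghrelin, and to depend on the homeobox factor Hhex. Beta cells in turn release urocortin 3, which stimulates delta cells through the receptor Crhr2.

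The promoters of 3 genes that separate the groups are shown first, since those of Ins1 and Sst also drive the reporters used for the sort, and Ucn3 gave a difference nearly as large as the insulin genes. Each sequence is the 250 bases before the transcription start in RefSeq (GRCm38.p6), 5′ to 3′ on the gene's strand. They lie at chr19:52264047-52264296 (plus strand) for Ins1, chr13:3945350-3945599 (minus strand) for Ucn3 and chr16:23890845-23891094 (minus strand) for Sst. Capitals mark an E-box (CATCTG, or CAGATG on the other strand) in Ins1 and Ucn3 and a cyclic AMP response element (TGACGTCA, the same on both strands) in Sst.
Ins1: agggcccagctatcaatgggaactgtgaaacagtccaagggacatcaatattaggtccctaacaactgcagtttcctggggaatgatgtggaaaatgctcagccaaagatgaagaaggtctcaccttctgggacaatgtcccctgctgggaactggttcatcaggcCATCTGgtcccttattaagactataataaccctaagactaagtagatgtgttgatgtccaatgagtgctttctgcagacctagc
Ucn3: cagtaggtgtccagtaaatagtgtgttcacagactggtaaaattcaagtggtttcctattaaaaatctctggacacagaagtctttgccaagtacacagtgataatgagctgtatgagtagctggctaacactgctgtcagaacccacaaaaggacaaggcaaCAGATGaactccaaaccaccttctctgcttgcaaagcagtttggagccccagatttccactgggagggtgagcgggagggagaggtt
Sst: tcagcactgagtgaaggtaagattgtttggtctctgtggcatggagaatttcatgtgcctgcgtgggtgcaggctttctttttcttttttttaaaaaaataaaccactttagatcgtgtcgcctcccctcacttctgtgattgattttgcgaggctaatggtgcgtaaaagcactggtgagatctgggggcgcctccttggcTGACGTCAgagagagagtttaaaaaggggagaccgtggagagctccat
The E-box begins 84 bases before the start of Ins1 and 87 bases before that of Ucn3, and the element of Sst begins 48 bases before its start. Both strands were searched, for these motifs and for a homeodomain core (TAATTA) and a TATA box (TATAAA), which none of the 3 sequences holds. The promoter of the delta-cell gene Hhex, searched in the same way and not shown, held none of these motifs. Of 27025 promoters of this length, 14.5% held the E-box, 1.62% the cyclic AMP response element, 4.90% the homeodomain core and 13.0% the TATA box. Among the 9097 tested genes with a promoter sequence, the E-box was in 9.31% and the cyclic AMP response element in 2.97%. Of 174 genes called at least 4-fold higher in beta cells 13.2% held the E-box, and of 194 called at least 4-fold higher in delta cells 12.4% did. The element found in Sst was in 4.02% and 3.09% of these 2 sets. A match is a description of the letters and no evidence of binding.

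Values below are RPKM rescaled by median-of-ratios factors, and those of a group are given for the male pool first and the female pool second. Differences are log2 of (rescaled RPKM + 1), beta minus delta, with their standard error (SE) and a Benjamini-Hochberg adjusted p from limma with the pool as a block. The added 1 understates the difference of low genes and limits that of genes near 0 in 1 group. A gene is called when its adjusted p is under 0.05. In every list below, a gene that passed the filter only through the libraries of 1 group could hardly come out higher in the other. In bulk sorted RNA, fewer cells of a type and less RNA per cell cannot be told apart.

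Beta and delta cells differed in a large share of their genes. Of the 12414 genes tested, 3809 (30.7%) were called higher in beta cells and 3969 (32.0%) higher in delta cells, 62.7% in all, and this background stands behind every count below. The values of all 4 libraries separated, with both of 1 group above both of the other, in 81.2% of the genes. Most differences were small: the median absolute difference was 0.48, and 2347 genes (18.9%) were called with a difference of 2-fold or more, 886 higher in beta and 1461 higher in delta cells. At 16-fold or more, 32 genes were called higher in beta and 39 higher in delta cells. Every one of the 7778 called genes differed in the same direction in the male and in the female pool, and in 7705 of them the libraries did not overlap. With the pool as a block, a gene whose pools disagree has a large SE and can hardly be called. The agreement in direction is therefore largely set by the rule for a call and is no replication. The split depends on the scaling: insulin RNA fills the beta libraries, and with the deposited RPKM the median difference over all genes moved from -0.01 to -0.36 and the calls became 1663 higher in beta and 6122 higher in delta cells.

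**Figure D1:**
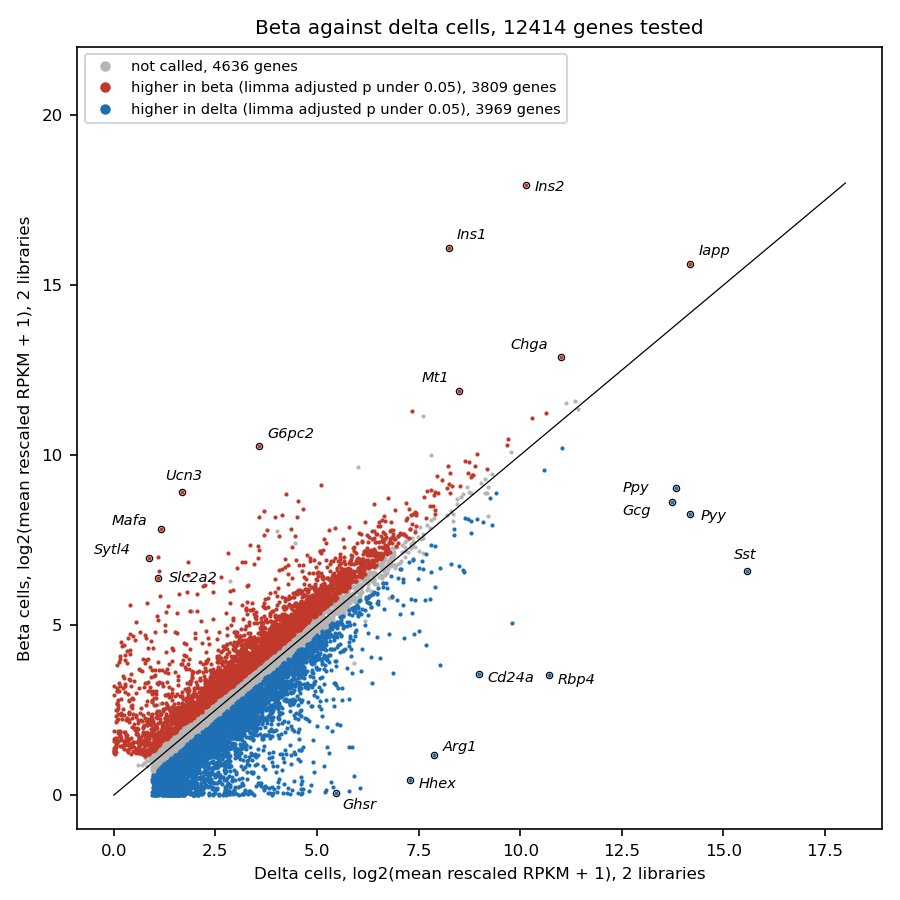
Mean rescaled RPKM of the 2 beta libraries (vertical axis) against that of the 2 delta libraries (horizontal axis), each as log2(RPKM + 1), for the 12414 genes tested; red and blue points are genes called higher in beta and in delta cells, grey points were not called, and the line marks equal levels. Ins1, Ins2 and Ucn3 lie far above the line, Sst, Rbp4 and Hhex far below it, and Iapp is high in both groups.

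Depth was similar within each group: steps in the low values gave 21.6 and 20.5 M reads in the beta and 17.0 and 15.7 M in the delta libraries. These are estimates of relative depth and not reported read counts. On this estimate a gene of 1 kilobase with 3 reads was at 0.139 to 0.191 RPKM as deposited, and lower values rest on few reads. Log values correlated at 0.975 between the beta libraries, 0.988 between the delta libraries and 0.826 to 0.850 between the groups. The male beta library stood apart in transcripts of acinar cells, the enzyme-making cells around the islets, whose 22 markers summed to 12890 RPKM there against 482 in the female beta library and 809 and 618 in the delta libraries. The male libraries of both groups were also higher in a set of glycolytic genes, described with that list.

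The insulin genes and Sst followed the sort. Ins2 was at 308822 and 193730 RPKM in the beta and 1002 and 1245 RPKM in the delta libraries. Ins1 was at 82926 and 57836 RPKM in the beta and 262 and 339.7 RPKM in the delta libraries. Both beta libraries lay more than 100-fold above both delta libraries for each insulin gene, although the delta libraries were far from 0. The differences were 7.77 (SE 0.39, adjusted p = 2.25e-05) and 7.85 (SE 0.30, adjusted p = 1.11e-05). Ins1 and Ins2 resemble each other closely in sequence, and how the counting shared reads between them is not known. Ins2 was not called with no filter on low values, where 25009 genes were tested. Sst was at 90.3 and 99.3 RPKM in the beta and 44335 and 53210 RPKM in the delta libraries, a difference of -8.99 (SE 0.20, adjusted p = 2.93e-06). Since the reporters use the Ins1 and Sst promoters, part of these differences was set by the sort. They are therefore no independent check of it.

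Ucn3, the peptide of mature beta cells, was at 459.6 and 494 RPKM in the beta and 2.17 and 2.20 RPKM in the delta libraries. Beyond the insulin genes it had the largest difference towards beta cells, 7.23 (SE 0.15, adjusted p = 2.7e-06). Hhex, the delta-cell homeobox factor (chromosome 19, 37434810 to 37440731, GRCm38), was at 153 and 159 RPKM in the delta and 0.368 and 0.379 RPKM in the beta libraries. Rbp4, a carrier of retinol (chromosome 19, 38116629 to 38125281), was at 1575 and 1779 RPKM in the delta and 10.4 and 10.7 RPKM in the beta libraries. In both genes the 2 libraries of a group lay close together and the groups were far apart, with differences of -6.84 (SE 0.12, adjusted p = 1.48e-06) and -7.18 (SE 0.12, adjusted p = 1.48e-06). All 23 tested beta-cell markers of 24 listed were called higher in beta cells, against 30.7% of all genes tested, with a median of 4.29 against -0.01 for all genes. Likewise 15 of the 17 tested delta-cell markers of 24 listed were called higher in delta cells, against 32.0% of all genes tested, with a median of -4.35. The other 2 were called higher in beta cells, among them the somatostatin receptor Sstr3 (52.2 and 57.3 against 34.2 and 38.9 RPKM), which lost its call with the deposited RPKM. The marker lists were written with earlier results of these data known, and a member that passed the filter only through the group where it is high had to differ, so such counts describe the libraries and support nothing further.

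**Figure D2:**
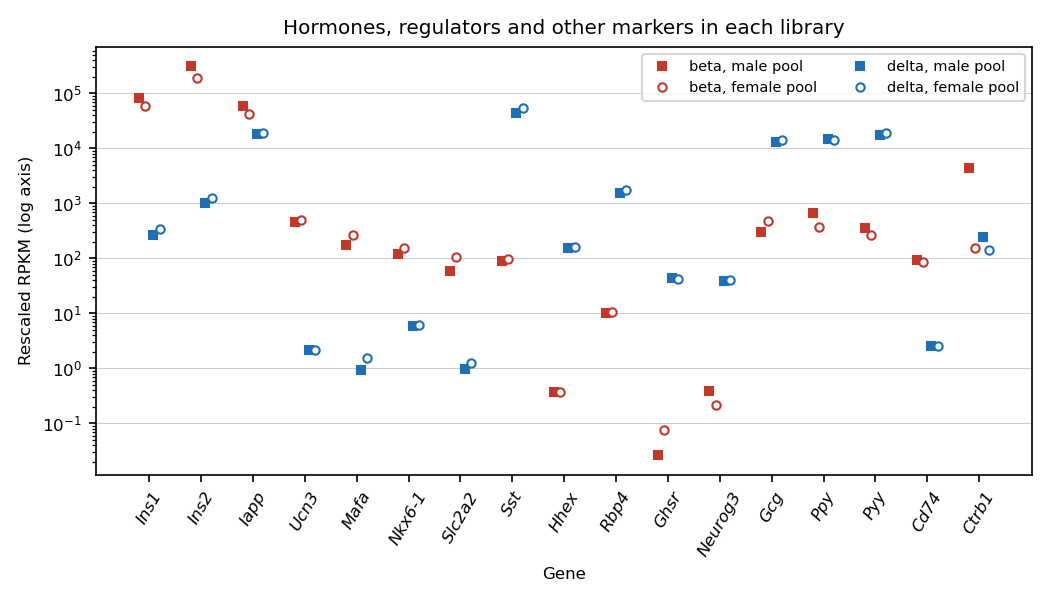
Rescaled RPKM on a log axis for 17 genes, with each library as 1 point: squares are male pools, circles female pools, red beta and blue delta libraries. The libraries of a group lie close together for most genes, whereas the acinar gene Ctrb1 is far higher in the male beta library than in the other 3.

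Several further genes marked the beta libraries. G6pc2, the islet glucose-6-phosphatase subunit, was at 1178 and 1269 RPKM in the beta and 9.95 and 11.7 RPKM in the delta libraries. Mafa, the transcription factor of mature beta cells, was at 177 and 270.1 RPKM in the beta and 0.924 and 1.56 RPKM in the delta libraries. Sytl4 (granuphilin), which docks insulin granules, was at 108 and 141 RPKM in the beta and 0.717 and 0.895 RPKM in the delta libraries. In each of these 3 genes the delta libraries were low and the beta libraries were high, and the differences were 6.70 (SE 0.11), 6.63 (SE 0.35) and 6.10 (SE 0.11). Slc2a2, the glucose transporter GLUT2, was at 60.1 and 107 RPKM in the beta and 0.994 and 1.27 RPKM in the delta libraries. Prss53, a serine protease, Tmem215, a membrane protein, and Fam151a differed by 5.92, 5.19 and 4.84. Adh1, an alcohol dehydrogenase, was at 126 and 103 RPKM in the beta and 2.68 and 2.39 RPKM in the delta libraries and differed by 5.02 (SE 0.12). Ero1lb, the oxidoreductase that helps insulin to fold in the endoplasmic reticulum, was at 267 and 381 RPKM in the beta and 11.6 and 12.5 RPKM in the delta libraries, so its delta libraries were low but not near 0.

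The delta libraries had their own set. Arg1, an arginase of the urea cycle, was at 249.6 and 222 RPKM in the delta and 1.52 and 0.985 RPKM in the beta libraries. Cd24a, a cell-surface glycoprotein, was at 499.6 and 504 RPKM in the delta and 12.1 and 9.44 RPKM in the beta libraries. Gap43, a growth-cone protein of neurons, was at 50.8 and 58.0 RPKM in the delta and 0.0773 and 0.110 RPKM in the beta libraries. These 3 genes were high in both delta libraries and, for Arg1 and Gap43, near or below 1 RPKM in both beta libraries, with differences of -6.72 (SE 0.11), -5.43 (SE 0.13) and -5.66 (SE 0.12). Gpm6a, a neuronal membrane glycoprotein, and Neurog3, the factor of endocrine progenitors, differed by -5.07 (SE 0.16) and -4.96 (SE 0.13). Neurog3 was at 38.7 and 40.2 RPKM in the delta and 0.382 and 0.218 RPKM in the beta libraries.

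At a stricter on-and-off rule, 12 genes were at 10 RPKM or more in both delta and under 0.1 RPKM in both beta libraries, and 1 gene was the reverse. The 5 highest of the delta genes were Ghsr, the ghrelin receptor, Ncam2, a neural adhesion molecule, Ptprz1, a receptor phosphatase, Olfm3, an olfactomedin, and the predicted gene Gm609. Olfm3 was at 22.5 and 24.9 RPKM in the delta and 0.0477 and 0.0453 RPKM in the beta libraries. Ptprz1 was at 23.0 and 23.9 RPKM in the delta and 0.0289 and 0.0314 RPKM in the beta libraries. The single beta gene was C1qb, a complement component made by macrophages, at 12.4 and 14.1 RPKM in the beta and 0.0483 and 0.0533 RPKM in the delta libraries, and it is described with the macrophage markers.

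Transcripts of other islet hormones were abundant in the delta libraries. Pyy (peptide YY) was at 17606 and 19343 RPKM in the delta and 355 and 261 RPKM in the beta libraries. Ppy (pancreatic polypeptide) was at 14907 and 14391 RPKM in the delta and 663 and 377 RPKM in the beta libraries. Gcg (glucagon) was at 12981 and 14418 RPKM in the delta and 299 and 483 RPKM in the beta libraries. Each of these was high in both delta libraries, with differences of -5.92 (SE 0.23), -4.87 (SE 0.26) and -5.17 (SE 0.21). Ppy (chromosome 11, 102099930 to 102101319) and Pyy (chromosome 11, 102106676 to 102107832) are neighbours on the same strand. As a share of the summed deposited RPKM, Sst held 13.5% and 15.4% of the delta libraries, Pyy 5.36% and 5.60%, Ppy 4.54% and 4.16%, and Gcg 3.95% and 4.17%. Iapp (amylin), which beta cells release with insulin, still held 5.59% and 5.40% there, against 7.80% and 7.69% in the beta libraries. Iapp was at 58226 and 42795 RPKM in the beta and 18377 and 18679.6 RPKM in the delta libraries, a difference of 1.43 (SE 0.36, adjusted p = 0.0132) that was not called without delta replicate 1, without delta replicate 2, with no filter or with the 4 libraries alone.

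Markers of alpha and PP cells were higher in the delta libraries too. All 14 tested alpha-cell markers of 15 listed were called higher in delta cells, with a median of -1.90, and the list summed to 961 and 1002 RPKM in the beta and 14383 and 15993 RPKM in the delta libraries, where most of the sum was Gcg. Among the alpha-cell transcription factors, Irx1 was at 5.55 and 5.82 RPKM in the delta and 0.0992 and 0.283 RPKM in the beta libraries. Irx2 was at 7.10 and 6.51 RPKM in the delta and 0.592 and 0.767 RPKM in the beta libraries. Both were at a low level in the delta libraries and below 1 RPKM in the beta libraries. Of the 6 tested PP- and epsilon-cell markers 5 were higher in delta cells, and Carhsp1 was called higher in beta cells, by 0.58 (SE 0.12), a call lost with the deposited RPKM or without delta replicate 1. Ghrelin (Ghrl) did not pass the filter. The part that alpha or PP cells in the delta sort may have in these values was not tested. The same holds for every other gene called higher in delta cells, such as the factors, receptors and retinoid genes below.

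Among 32 secreted peptides and growth factors that passed the filter, of 58 listed, 17 were called higher in beta and 9 higher in delta cells, with a median of 0.41. The counts were 13 and 12, with a median of 0.08, with the deposited RPKM, and 12 and 11 without delta replicate 1. Beyond the hormones above, Adm2 (intermedin), a peptide of the calcitonin family, was at 74.9 and 23.3 RPKM in the beta and 8.21 and 4.23 RPKM in the delta libraries. The male library was the higher one in each group, both beta libraries were above both delta libraries, and the difference was 2.63 (SE 0.20, adjusted p = 0.00012). Wnt4, a Wnt ligand, was at 113 and 93.6 RPKM in the beta and 13.9 and 20.9 RPKM in the delta libraries. Vgf, a granule peptide precursor, was at 176 and 166 RPKM in the beta and 34.1 and 38.7 RPKM in the delta libraries. Both were higher in the 2 beta libraries, by 2.53 (SE 0.19) and 2.20 (SE 0.14). Cartpt was at 12.4 and 5.12 RPKM in the beta and 0.841 and 1.33 RPKM in the delta libraries. Npy, neuropeptide Y, was at 18.1 and 48.7 RPKM in the beta and 7.24 and 10.8 RPKM in the delta libraries. Pdyn, the opioid precursor prodynorphin, was at 233 and 166 RPKM in the beta and 57.2 and 90.3 RPKM in the delta libraries. In the delta direction, Edn3 (endothelin 3) was at 5.81 and 5.54 RPKM in the delta and 0.114 and 0.136 RPKM in the beta libraries. Fgf14, an intracellular fibroblast growth factor homologue that regulates sodium channels, was at 8.57 and 7.72 RPKM in the delta and 0.0141 and 0.0936 RPKM in the beta libraries. Nts (neurotensin) was low in all 4 libraries, at 5.40 and 1.43 RPKM in the delta and 0.701 and 0.0951 RPKM in the beta libraries, and differed by -1.53 (SE 0.25, adjusted p = 0.0022).

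Islet transcription factors were more often higher in delta cells. Of 52 that passed the filter, of 64 listed, 35 were called higher in delta and 11 higher in beta cells, 6 were not called, and the median was -0.75. The factors higher in beta cells were led by Mafa. Nkx6-1, which keeps beta-cell identity, was at 120.0 and 156 RPKM in the beta and 6.02 and 6.07 RPKM in the delta libraries, a difference of 4.29 (SE 0.15, adjusted p = 7.94e-06). Mnx1, a homeobox factor of beta cells, was at 13.4 and 14.7 RPKM in the beta and 0.0700 and 0.103 RPKM in the delta libraries. Ovol2, a zinc-finger factor, was at 5.46 and 6.54 RPKM in the beta and 0.0745 and 0.0824 RPKM in the delta libraries. Both were near 0 in the delta libraries and differed by 3.79 (SE 0.16) and 2.69 (SE 0.15). Pdx1 and Nkx2-2, which are shared by beta and delta cells, were present in both groups: Pdx1 was at 98.0 and 122 RPKM in the beta and 53.4 and 58.8 RPKM in the delta libraries. Nkx2-2 was at 46.4 and 50.2 RPKM in the beta and 19.2 and 18.6 RPKM in the delta libraries. Both were called higher in beta cells, by 0.95 (SE 0.12) and 1.31 (SE 0.15).

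In the delta direction Hhex and Neurog3 were followed by Fev, a serotonergic ETS factor, and Etv1, another ETS factor. Fev was at 18.6 and 20.1 RPKM in the delta and 1.09 and 0.657 RPKM in the beta libraries. Etv1 was at 29.8 and 28.3 RPKM in the delta and 2.33 and 1.88 RPKM in the beta libraries. The differences were -3.45 (SE 0.15) and -3.28 (SE 0.11). Isl1, a LIM homeobox factor of all islet endocrine cells, was at 108 and 107 RPKM in the delta and 25.4 and 25.9 RPKM in the beta libraries. Gata6 was at 12.5 and 14.4 RPKM in the delta and 2.03 and 2.42 RPKM in the beta libraries. Prox1 was at 32.8 and 33.2 RPKM in the delta and 6.24 and 8.91 RPKM in the beta libraries. These 3 were detected in every library and were higher in the delta ones, with differences of -2.03 for Isl1 and -2.16 for Gata6. Sox9, a progenitor and duct factor, was at 2.64 and 3.58 RPKM in the delta and 0.0427 and 0 RPKM in the beta libraries. All 4 members of the Id family, inhibitors of helix-loop-helix factors and targets of BMP signalling, were called higher in delta cells. The differences were -1.93 (SE 0.22) for Id1, -1.50 (SE 0.12) for Id2, -1.74 (SE 0.14) for Id4 and -0.66 (SE 0.19, adjusted p = 0.0238) for Id3. Id3 lost its call without beta replicate 2, without delta replicate 1, with no filter or without the block. Rfx6 and Rfx3, winged-helix factors of endocrine cells, differed by -1.55 (SE 0.12) and -1.96 (SE 0.16).

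**Figure D3:**
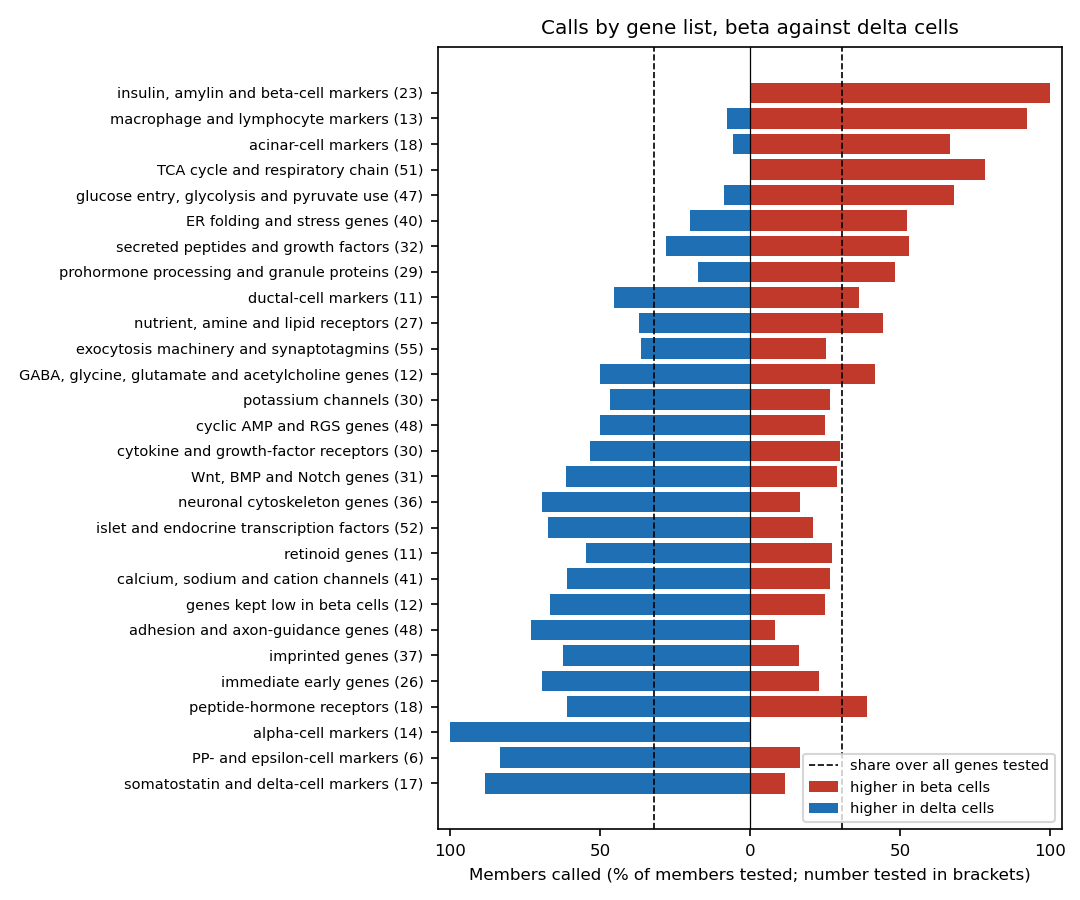
Share of the tested members of each gene list called higher in beta cells (red, to the right) or in delta cells (blue, to the left), with the number tested in brackets and lists ordered by their median difference; dashed lines mark the shares over all genes tested, 30.7% and 32.0%. The respiratory list has no member called higher in delta cells, and the adhesion, channel and transcription-factor lists lean to delta cells.

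Proteins of prohormone processing and of the secretory granule leaned to beta cells: 14 of 29 tested were called higher in beta and 5 higher in delta cells, with a median of 0.40. With the deposited RPKM the counts were 12 and 10, and the median turned to -0.01. With a filter of 5 RPKM the counts were 10 and 6 of 24, with a median of 0.10. Without delta replicate 1 they were 12 and 3, without delta replicate 2 13 and 3, and without beta replicate 2 17 and 8. Pcsk1, the convertase that cuts proinsulin, was at 177 and 274 RPKM in the beta and 20.3 and 19 RPKM in the delta libraries, a difference of 3.42 (SE 0.17, adjusted p = 2.35e-05). Pcsk2, the other convertase, was at 533 and 624 RPKM in the beta and 487 and 557 RPKM in the delta libraries, its libraries overlapped, and it was not called (adjusted p = 0.347). Slc30a8, the granule zinc transporter, was at 203 and 237 RPKM in the beta and 38.5 and 37.8 RPKM in the delta libraries. Cadps, a priming factor of dense-core granules, was at 28.8 and 42.0 RPKM in the beta and 4.16 and 4.64 RPKM in the delta libraries. Its paralogue Cadps2 lay the other way, at 4.32 and 4.88 RPKM in the delta and 1.35 and 1.48 RPKM in the beta libraries, with differences of 2.73 (SE 0.13) and -1.21 (SE 0.12). Chga (chromogranin A) was at 7444 and 7621 RPKM in the beta and 1764 and 2309 RPKM in the delta libraries. Chgb (chromogranin B) was at 1134 and 1246 RPKM in the beta and 2165 and 1991 RPKM in the delta libraries. The 2 chromogranins differed in opposite directions, by 1.90 (SE 0.22, adjusted p = 0.0006) and -0.80 (SE 0.18, adjusted p = 0.00777), and Chgb was not called without delta replicate 1, with no filter or with the 4 libraries alone, and Chga was not called with no filter. Resp18, a granule protein of endocrine cells, was at 1342 and 1749 RPKM in the delta and 822 and 698 RPKM in the beta libraries.

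Genes of the exocytosis machinery were called at close to the background rate, 14 higher in beta and 20 higher in delta cells of 55 tested, with a median of -0.04, and 11 and 31 with the deposited RPKM. Within families, members took opposite sides. Rims3 was at 22.8 and 29.4 RPKM in the beta and 1.76 and 2.15 RPKM in the delta libraries. Rims2 was at 15.2 and 14.9 RPKM in the delta and 5.47 and 8.73 RPKM in the beta libraries. The differences were 3.19 (SE 0.11) for Rims3, towards beta cells, and -1.02 (SE 0.17) for Rims2, towards delta cells. Of the synaptotagmins, a family of which only some members are calcium sensors of fusion, Syt13 was at 489.8 and 487 RPKM in the beta and 204 and 208 RPKM in the delta libraries. Syt4 was at 84.2 and 78.6 RPKM in the beta and 29.0 and 31.6 RPKM in the delta libraries. Syt1, the fast sensor of neurons, was at 12.7 and 11.0 RPKM in the delta and 0.141 and 0.148 RPKM in the beta libraries. Syt6 was at 2.64 and 3.01 RPKM in the delta and 0 and 0.00960 RPKM in the beta libraries. Syt1 and Syt6 were therefore near 0 in beta cells, with differences of -3.49 (SE 0.16) and -1.93 (SE 0.13), while Syt13 and Syt4 differed by 1.24 (SE 0.12) and 1.40 (SE 0.13). Stxbp5l (tomosyn 2), an inhibitor of SNARE assembly, was at 35.8 and 34.0 RPKM in the delta and 0.449 and 1.15 RPKM in the beta libraries, the largest difference of the list towards delta cells, -4.35 (SE 0.18).

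Of 18 peptide-hormone receptors that passed the filter, of 51 listed, 7 were called higher in beta and 11 higher in delta cells, with a median of -1.40. With a filter of 5 RPKM, which drops the low members, the majority turned, to 7 and 3 of 10. The incretin and glucagon receptors were on the beta side: Glp1r was at 129 and 237 RPKM in the beta and 30.5 and 40.0 RPKM in the delta libraries. Gipr was at 19.2 and 19.7 RPKM in the beta and 11.1 and 7.22 RPKM in the delta libraries. Gcgr was at 15.6 and 13.5 RPKM in the beta and 3.93 and 3.70 RPKM in the delta libraries. Each was present in both groups and higher in beta cells, by 2.29 (SE 0.15), 1.04 (SE 0.18) and 1.69 (SE 0.18). Galr1, an inhibitory galanin receptor, was at 9.45 and 10.3 RPKM in the beta and 0.219 and 0.141 RPKM in the delta libraries. Vipr1, a receptor for vasoactive intestinal peptide, was at 20.6 and 25.1 RPKM in the beta and 4.59 and 5.06 RPKM in the delta libraries.

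Among those higher in delta cells, Ghsr was at 44.1 and 42.5 RPKM in the delta and 0.0266 and 0.0757 RPKM in the beta libraries, a difference of -5.40 (SE 0.12, adjusted p = 2.7e-06). Sstr1, a somatostatin receptor, was at 12.8 and 17.3 RPKM in the delta and 0.0288 and 0.109 RPKM in the beta libraries. Sstr2, the receptor best known from alpha cells, was at 2.06 and 1.68 RPKM in the delta and 0.0824 and 0.0783 RPKM in the beta libraries. These 2 somatostatin receptors were thus higher in the delta libraries, whereas Sstr3 was higher in the beta libraries. Crhr2, the receptor of urocortin 3, was at 2.56 and 3.13 RPKM in the delta and 0.0115 and 0.0109 RPKM in the beta libraries, a difference of -1.92 (SE 0.13, adjusted p = 7.01e-05). The ligand Ucn3 and its receptor Crhr2 were therefore called on opposite sides. The oxytocin receptor Oxtr was at 23.6 and 23.3 RPKM in the delta and 1.36 and 1.60 RPKM in the beta libraries, with a difference of -3.30 (SE 0.12). The vasopressin receptor Avpr1b was at 3.04 and 4.04 RPKM in the delta and 0.0293 and 0.0417 RPKM in the beta libraries. Its relative Avpr1a was at 2.12 and 1.85 RPKM in the delta and 0.0220 and 0 RPKM in the beta libraries. Both vasopressin receptors were near 0 in the beta libraries and higher in the delta libraries, with differences of -2.12 (SE 0.13) and -1.56 (SE 0.11). The part of alpha or PP cells in the receptor values of the delta libraries was not tested. Both endothelin receptors were called higher in delta cells, with differences of -1.52 (SE 0.15) for Ednra and -1.39 (SE 0.21) for Ednrb.

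Receptors for nutrients, amines and lipids had no common side: 12 of the 27 that passed the filter, of 75 listed, were called higher in beta and 10 higher in delta cells, with a median of 0.10. The median turned under both other scalings, to -0.24 with the deposited RPKM, where the counts were 9 and 11, and to -0.01 with 75th percentile scaling. Among the fatty acid receptors, Ffar1 (GPR40) was at 51.5 and 61.2 RPKM in the beta and 1.21 and 1.15 RPKM in the delta libraries. Ffar4 (GPR120) was at 51.0 and 56.5 RPKM in the delta and 1.65 and 1.73 RPKM in the beta libraries. These long-chain receptors were called on opposite sides, by 4.71 (SE 0.11, adjusted p = 2.93e-06) and -4.35 (SE 0.11, adjusted p = 2.93e-06). Ffar3, a short-chain receptor, was at 6.81 and 6.96 RPKM in the beta and 0.341 and 0.220 RPKM in the delta libraries, a difference of 2.62 (SE 0.11). Among the muscarinic receptors, Chrm3, which couples to Gq, was at 12.5 and 17.1 RPKM in the beta and 2.03 and 2.46 RPKM in the delta libraries. Chrm4, which couples to Gi, was at 19.3 and 21.5 RPKM in the delta and 2.66 and 2.68 RPKM in the beta libraries. They also lay on opposite sides, at 2.27 (SE 0.11) and -2.54 (SE 0.13). The GABA-B subunits, which act as a pair, did the same: Gabbr2 was at 19.9 and 25.7 RPKM in the beta and 0.385 and 0.486 RPKM in the delta libraries. Gabbr1 was at 7.30 and 6.79 RPKM in the delta and 2.59 and 2.61 RPKM in the beta libraries. Their differences were 4.04 (SE 0.13) and -1.16 (SE 0.11). Adra2a, the adrenergic receptor that inhibits insulin release, was at 41.1 and 43.7 RPKM in the beta and 8.34 and 8.81 RPKM in the delta libraries. Casr, the calcium-sensing receptor, was at 37.7 and 39.7 RPKM in the delta and 12.1 and 21.0 RPKM in the beta libraries. Adora2b, Gpr158 and P2ry6 were higher in beta cells by 2.19, 3.47 and 2.87.

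Receptors for cytokines and growth factors were called higher in beta cells in 9 and higher in delta cells in 16 of the 30 that passed the filter. With a filter of 5 RPKM the counts were 8 and 11 of 24, and the median moved from -0.42 to -0.14. Il1r1, the interleukin 1 receptor, was at 139 and 149 RPKM in the beta and 37.2 and 27.5 RPKM in the delta libraries, a difference of 2.13 (SE 0.15, adjusted p = 7.55e-05). Prlr, the prolactin receptor, was at 19.9 and 27.5 RPKM in the beta and 0.746 and 0.730 RPKM in the delta libraries. Ntrk2, the receptor of brain-derived neurotrophic factor, was at 21.7 and 28.1 RPKM in the beta and 0.753 and 0.647 RPKM in the delta libraries. The receptors Prlr and Ntrk2 were below 1 RPKM in both delta libraries, with differences of 3.81 (SE 0.14) and 3.92 (SE 0.14). Igf1r differed by 1.47 (SE 0.18), Egfr by 1.75 (SE 0.14), and Ret by 1.42 (SE 0.10). Gfra1, a co-receptor of Ret, was at 13.4 and 17.5 RPKM in the delta and 0.193 and 0.143 RPKM in the beta libraries, so the co-receptor and Ret were called on opposite sides. Among receptors of the BMP and activin family, Bmpr1a was at 35.2 and 33.0 RPKM in the delta and 13.2 and 15 RPKM in the beta libraries. Acvr2a was at 10.4 and 9.91 RPKM in the delta and 3.97 and 4.72 RPKM in the beta libraries. Bmpr2, Acvr2b and Acvr1b were also called higher in delta cells, with differences of -0.95, -0.93 and -0.68, and Tgfbr3, a co-receptor, differed by -1.38.

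Potassium channels were called higher in delta cells in 14 and higher in beta cells in 8 of 30 tested. The subunits of the ATP-sensitive channel were present in all 4 libraries: Kcnj11, the pore, was at 75.4 and 94.4 RPKM in the beta and 90.0 and 102 RPKM in the delta libraries. Abcc8, the sulfonylurea receptor, was at 232 and 304 RPKM in the beta and 402 and 482 RPKM in the delta libraries. The libraries of Kcnj11 overlapped and it was not called (adjusted p = 0.17), whereas Abcc8 was called higher in delta cells, with a difference of -0.73 (SE 0.12, adjusted p = 0.00268). Kcna5, a voltage-gated channel, was at 13.4 and 14.8 RPKM in the delta and 0.0206 and 0.0586 RPKM in the beta libraries. Kcnk3 (TASK-1), a leak channel, was at 9.88 and 11.4 RPKM in the delta and 0.488 and 0.422 RPKM in the beta libraries. Kcnk16 (TALK-1), the abundant leak channel of the islet, was at 223 and 250.2 RPKM in the delta and 151 and 164 RPKM in the beta libraries. Kcnd2 was listed at 0 in both beta libraries and was at 2.88 and 3.55 RPKM in the delta libraries. In the beta direction Kcnh1 was at 11.0 and 12.3 RPKM in the beta and 0.594 and 0.649 RPKM in the delta libraries. Kcnj12, an inward rectifier, was at 5.37 and 5.37 RPKM in the beta and 0.0382 and 0.0633 RPKM in the delta libraries. Their differences were 2.96 (SE 0.14) and 2.60 (SE 0.17), and Kcnh6 differed by 1.34 (SE 0.15).

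Calcium, sodium and other cation channels leaned further to delta cells, with 25 called higher there and 11 higher in beta cells of 41 tested, and a median of -0.75. All 3 low-voltage-activated (T-type) calcium channels were on the delta side. Cacna1h was at 20.5 and 19 RPKM in the delta and 0.109 and 0.120 RPKM in the beta libraries. Cacna1g was at 4.47 and 4.55 RPKM in the delta and 0.139 and 0.171 RPKM in the beta libraries. Cacna1i was at 3.81 and 4.24 RPKM in the delta and 0.0298 and 0.0510 RPKM in the beta libraries. They were below 0.2 RPKM in the beta libraries and differed by -4.22 (SE 0.11, adjusted p = 3.19e-06), -2.25 (SE 0.11) and -2.27 (SE 0.11). The auxiliary subunits Cacna2d2 and Cacna2d3 differed by -3.76 (SE 0.13) and -3.27 (SE 0.14). Of the L-type channels, which carry most of the calcium current of beta cells, Cacna1d was at 14.2 and 22.4 RPKM in the beta and 15.9 and 14.8 RPKM in the delta libraries. Its libraries overlapped, and it was not called (adjusted p = 0.343). The sodium channel Scn3a was at 10.3 and 8.71 RPKM in the delta and 0.609 and 0.512 RPKM in the beta libraries. Scn9a, another sodium channel, was at 11.8 and 11.9 RPKM in the delta and 1.33 and 2.11 RPKM in the beta libraries. The auxiliary subunit Scn3b was at 11.5 and 12.7 RPKM in the delta and 0.202 and 0.222 RPKM in the beta libraries. All 3 were higher in delta cells, with differences of -2.75 (SE 0.11), -2.25 (SE 0.14) and -3.43 (SE 0.11).

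Other cation channels and stores separated as well. Trpm5, a calcium-activated channel, was at 15.7 and 13.4 RPKM in the beta and 0.189 and 0.236 RPKM in the delta libraries. Trpa1, an irritant-gated channel, was at 7.70 and 8.18 RPKM in the delta and 0.0138 and 0.0262 RPKM in the beta libraries. These members of the transient receptor potential family were called on opposite sides, by 3.68 (SE 0.12) and -3.13 (SE 0.14). Trpc5 was listed at 0 in both beta libraries and was at 1.78 and 1.89 RPKM in the delta libraries. Of the calcium-release channels, Itpr1 was at 36.3 and 38.1 RPKM in the delta and 1.91 and 4.17 RPKM in the beta libraries, a difference of -3.30 (SE 0.21, adjusted p = 5.57e-05), and Itpr2 was higher in beta cells, by 1.06 (SE 0.11). The pumps that refill the endoplasmic reticulum were on the beta side, led by Atp2a2 (SERCA2) at 366 and 485 RPKM in the beta and 103 and 108 RPKM in the delta libraries. Atp2a3 (SERCA3) was at 241 and 279 RPKM in the beta and 67.2 and 75.3 RPKM in the delta libraries. Gjd2 (connexin 36), which couples beta cells electrically, was at 104 and 111 RPKM in the beta and 22.8 and 25.4 RPKM in the delta libraries, a difference of 2.12 (SE 0.10), and its delta libraries were not near 0.

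Of 12 tested genes of fast transmitters, 5 were called higher in beta and 6 higher in delta cells, and 3 and 6 without delta replicate 1 or with the deposited RPKM. Gad1, which makes GABA, was at 15.3 and 16.5 RPKM in the beta and 0.0962 and 0.129 RPKM in the delta libraries, a difference of 3.93 (SE 0.12, adjusted p = 5.01e-06). The enzyme was thus near 0 in the delta libraries. The AMPA receptor subunits Gria2 and Gria3 were higher in delta cells, with differences of -2.62 (SE 0.13) and -1.79 (SE 0.15). Grin1, a subunit of the NMDA receptor, was higher in beta cells, by 1.53 (SE 0.13). Ache, acetylcholinesterase, was at 25.8 and 32.7 RPKM in the delta and 0.917 and 0.278 RPKM in the beta libraries, a difference of -4.26 (SE 0.21).

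**Figure D4:**
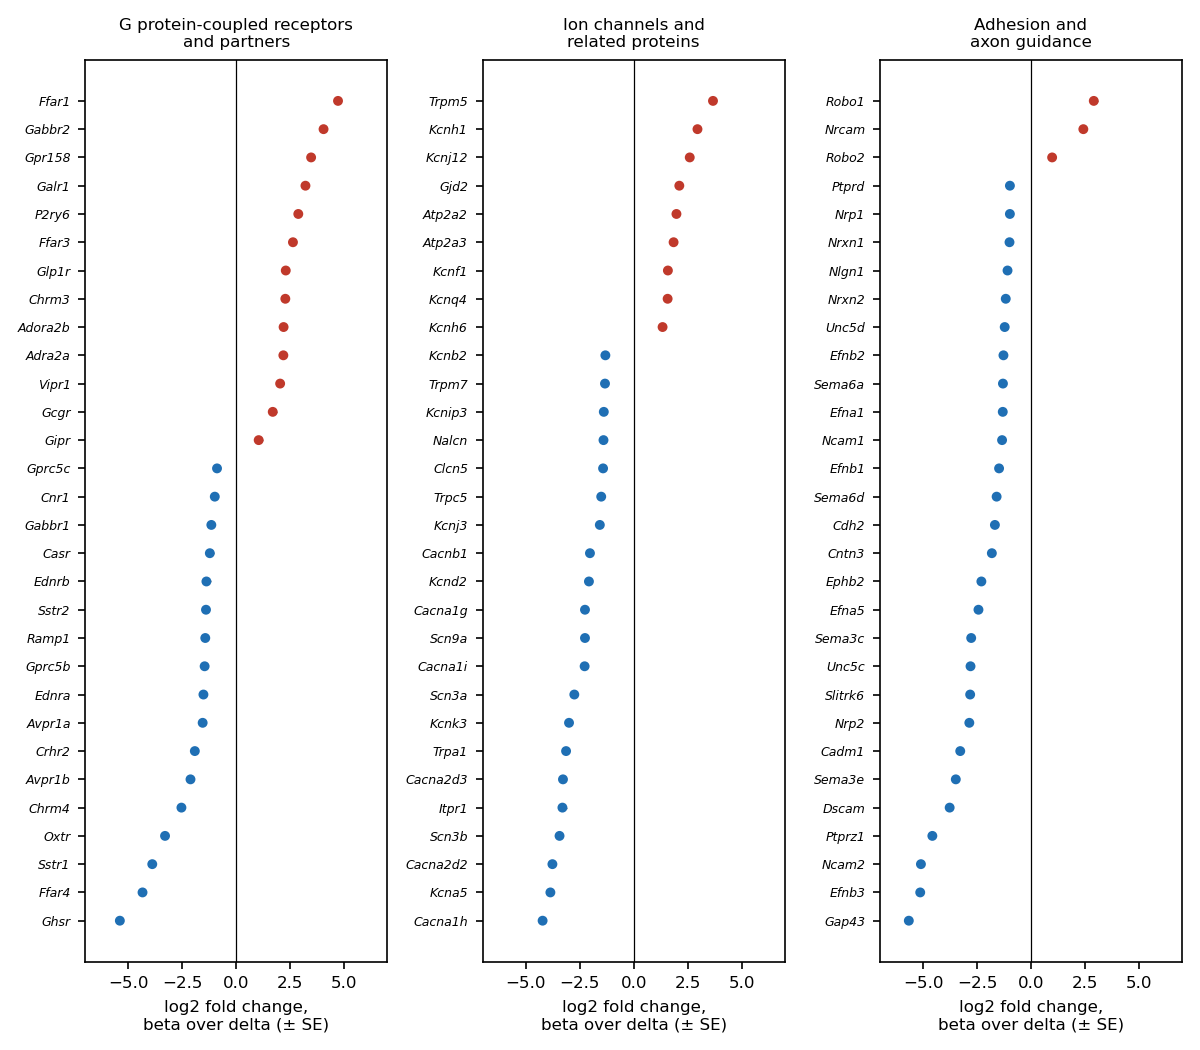
Difference between beta and delta cells, log2 of (rescaled RPKM + 1), for 30 members of large absolute difference in each of 3 sets of lists: receptors, ion channels and adhesion or guidance genes; red points were called higher in beta and blue points higher in delta cells, and bars are ± 1 SE, mostly hidden by the points. Receptors fall on both sides, from Ffar1 at 4.71 to Ghsr at -5.40, whereas 27 of the 30 adhesion genes shown are on the delta side.

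Genes of glucose use were mostly higher in beta cells: 32 of 47 tested were called higher in beta and 4 higher in delta cells, with a median of 0.68. Without the pool as a block the count in beta cells was 20. Besides Slc2a2 and G6pc2, the mitochondrial enzyme Pcx (pyruvate carboxylase) separated furthest, at 73.0 and 80.1 RPKM in the beta and 3.66 and 5.26 RPKM in the delta libraries, a difference of 3.84 (SE 0.11, adjusted p = 5.01e-06). Slc37a4, the glucose-6-phosphate transporter that works with G6pc2, was at 66.6 and 56.7 RPKM in the beta and 15.3 and 13.7 RPKM in the delta libraries. Gpd2 and Gpd1, the enzymes of the glycerol phosphate shuttle, were higher in beta cells by 1.51 (SE 0.14) and 1.58 (SE 0.11). Pdk4, the kinase that shuts down pyruvate dehydrogenase, was at 11.6 and 11.2 RPKM in the delta and 0.151 and 0.398 RPKM in the beta libraries. Slc2a3, the neuronal glucose transporter GLUT3, was at 2.94 and 2.90 RPKM in the delta and 0.0569 and 0.0386 RPKM in the beta libraries. Both were called higher in delta cells, with differences of -3.29 (SE 0.13) and -1.90 (SE 0.12). The list also holds the glucagon receptor Gcgr, which is no enzyme of glucose use.

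Several glycolytic genes differed between the pools in both groups. Of the 47 tested, 7 were at least 2-fold higher in the male than in the female library of beta cells and also of delta cells, against 37 of all 12414 genes. Slc2a1, the glucose transporter GLUT1, was at 43.5 and 14.3 RPKM in the beta and 17.5 and 6.69 RPKM in the delta libraries. Tpi1, triosephosphate isomerase, was at 282 and 99.9 RPKM in the beta and 106 and 46.0 RPKM in the delta libraries. In each group the male library was high and the female one low, so the groups overlapped, although the beta library was the higher within each pool. Ldha, lactate dehydrogenase A, was at 33.2 and 4.71 RPKM in the beta and 42.8 and 6.34 RPKM in the delta libraries. Its pools differed far more than its groups, which were not called apart (adjusted p = 0.193). Pfkl, a phosphofructokinase, was at 131 and 45.0 RPKM in the beta and 63.6 and 26.7 RPKM in the delta libraries. Slc2a1, Tpi1 and Pfkl were called higher in beta cells with the block and not called without it. Sex and pool cannot be told apart here.

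Genes of the citric acid cycle and the respiratory chain had 40 of 51 tested called higher in beta cells and 0 higher in delta cells, with a median of 0.75. With the deposited RPKM the counts were 27 and 5. Cox6a2, the muscle form of a cytochrome oxidase subunit, was at 96.2 and 93.3 RPKM in the beta and 0.540 and 1.79 RPKM in the delta libraries, a difference of 5.53 (SE 0.22, adjusted p = 1.15e-05). Its paralogue Cox6a1 was at 279 and 243 RPKM in the beta and 105 and 120.2 RPKM in the delta libraries. The paralogue was thus present in both groups and differed by 1.21 (SE 0.17). Fh1, fumarase, was at 109 and 109 RPKM in the beta and 22.1 and 22.7 RPKM in the delta libraries, a difference of 2.23 (SE 0.11, adjusted p = 1.97e-05). Most members differed by less, such as Cyc1 (cytochrome c1) by 1.34 (SE 0.12) and Sdhb by 1.15 (SE 0.14). Outside these lists, Mt1, a metallothionein that binds zinc and copper (chromosome 8, 94179082 to 94180327), was at 4515 and 3095 RPKM in the beta and 348 and 372 RPKM in the delta libraries. Its neighbour Mt2 (94172664 to 94173568) was at 3048 and 2008 RPKM in the beta and 162 and 156 RPKM in the delta libraries. Both were among the most abundant beta transcripts and were higher in beta cells by 3.37 (SE 0.21) and 3.95 (SE 0.18).

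Of 40 genes for folding and stress in the endoplasmic reticulum, 21 were called higher in beta and 8 higher in delta cells, with a median of 0.43, and the counts were level at 12 and 12 with the deposited RPKM. They were 18 and 4 without delta replicate 1, 15 and 6 without delta replicate 2, 25 and 5 without beta replicate 1, and 19 and 4 both with the 4 libraries fitted alone and with no filter. The stress-response factor Ddit3 (CHOP) was at 138 and 68.0 RPKM in the beta and 33.3 and 27.3 RPKM in the delta libraries. Trib3, a pseudokinase of the same response, was at 136 and 78.1 RPKM in the beta and 18.4 and 18.5 RPKM in the delta libraries. Both were higher in the beta libraries and highest in the male one, with differences of 1.65 (SE 0.17) and 2.42 (SE 0.19). Nupr1, a stress-induced factor, was at 328 and 69.5 RPKM in the beta and 15.1 and 8.89 RPKM in the delta libraries, a difference of 3.59 (SE 0.32, adjusted p = 0.000207), and its 2 beta libraries lay far apart. Atf4, which drives these genes, and its target Asns, asparagine synthetase, differed by 0.95 (SE 0.13) and 1.22 (SE 0.12). Among the chaperones, Hspa5 (BiP) was at 501 and 559 RPKM in the beta and 582 and 605 RPKM in the delta libraries and was not called (adjusted p = 0.31). Hsp90b1 (GRP94) was at 449 and 436 RPKM in the delta and 208 and 208 RPKM in the beta libraries and was called higher in delta cells, with a difference of -1.08 (SE 0.12).

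Genes of cyclic AMP signalling and regulators of G proteins were called higher in delta cells in 24 and higher in beta cells in 12 of 48 tested, with a median of -0.36. With a filter of 5 RPKM, which drops the low members, 14 were called higher in delta and 8 higher in beta cells of 35. The median was then -0.02. The adenylyl cyclase Adcy8 was at 6.58 and 6.65 RPKM in the delta and 0.0234 and 0.111 RPKM in the beta libraries. Adcy2, another cyclase, was at 3.33 and 2.98 RPKM in the delta and 0.0419 and 0.0664 RPKM in the beta libraries. Both were near 0 in beta cells and differed by -2.84 (SE 0.12) and -1.98 (SE 0.12). Rapgef3 (EPAC1), a cyclic AMP sensor, was at 4.78 and 4.38 RPKM in the delta and 0.0929 and 0.0883 RPKM in the beta libraries. Rgs9, which speeds the turning off of Gi proteins, was at 46.4 and 42.7 RPKM in the delta and 7.73 and 8.18 RPKM in the beta libraries. In the beta direction Pde5a, a phosphodiesterase for cyclic GMP, was at 11.2 and 12.7 RPKM in the beta and 1.08 and 0.950 RPKM in the delta libraries. Gnai2, an inhibitory G protein, was at 423 and 342 RPKM in the beta and 138 and 153 RPKM in the delta libraries. The differences were 2.68 (SE 0.12) and 1.38 (SE 0.14).

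Genes of cell adhesion and axon guidance leaned to delta cells, with 35 of 48 tested called higher there and 4 higher in beta cells, and a median of -1.04. Members near 0 in the beta libraries passed the filter through the delta libraries alone, so they had to come out higher there. With no filter 45 were called higher in delta and 5 higher in beta cells of 78, with a median of -0.38. Efnb3, an ephrin, was at 35.1 and 46.5 RPKM in the delta and 0.185 and 0.176 RPKM in the beta libraries. Ncam2 was at 37.5 and 33.2 RPKM in the delta and 0.0478 and 0.0726 RPKM in the beta libraries. Dscam was at 12.2 and 14.5 RPKM in the delta and 0.0392 and 0.0671 RPKM in the beta libraries. Sema3e, a semaphorin, was at 12.8 and 11.8 RPKM in the delta and 0.158 and 0.223 RPKM in the beta libraries. Cadm1, an adhesion protein of synapses and islets, was at 22.0 and 24.9 RPKM in the delta and 1.56 and 1.48 RPKM in the beta libraries. In these 5 genes both delta libraries were high and the beta libraries below 0.3 RPKM except for Cadm1. The differences were -5.13 (SE 0.14), -5.10 (SE 0.13), -3.77 (SE 0.13), -3.48 (SE 0.12) and -3.28 (SE 0.13). The ephrin system held more members on this side: Efna5 differed by -2.43 (SE 0.11), Ephb2, a receptor, by -2.30 (SE 0.12), and Efnb1 by -1.48 (SE 0.10). The netrin receptor Unc5c and the neuropilin Nrp2 differed by -2.80 (SE 0.12) and -2.86 (SE 0.13), and Cdh2 (N-cadherin) by -1.67 (SE 0.13). Cdh1 (E-cadherin), which joins all islet cells, was at 113 and 123 RPKM in the beta and 130.1 and 137 RPKM in the delta libraries and was not called (adjusted p = 0.198). It was called higher in delta cells under both other scalings, with differences of -0.60 with the deposited RPKM and -0.31 with 75th percentile scaling. The 4 members on the beta side were the Slit receptors Robo1 and Robo2 and the neural adhesion molecules Nrcam and Cntnap2. Robo1 was at 6.26 and 10.2 RPKM in the beta and 0.229 and 0.169 RPKM in the delta libraries. Nrcam was at 6.29 and 6.29 RPKM in the beta and 0.429 and 0.283 RPKM in the delta libraries. The differences of the 4 were 2.91 (SE 0.18), 0.98 (SE 0.15), 2.43 (SE 0.11) and 0.64 (SE 0.12) in this order, and Cntnap2 lost its call with the deposited RPKM.

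Genes of the neuronal cytoskeleton and of neuronal RNA processing were called higher in delta cells in 25 and higher in beta cells in 6 of 36 tested, with a median of -0.74. Eef1a2, an elongation factor of neurons and muscle, was at 36.9 and 39.0 RPKM in the delta and 1.10 and 1.64 RPKM in the beta libraries. Basp1, a membrane protein of growth cones, was at 21.0 and 21.1 RPKM in the delta and 1.15 and 1.51 RPKM in the beta libraries. Nefm, a neurofilament, was at 28.9 and 24.4 RPKM in the delta and 3.93 and 3.21 RPKM in the beta libraries. The 3 genes were high in both delta libraries, with differences of -4.05 (SE 0.14), -3.25 (SE 0.14) and -2.60 (SE 0.11). The other neurofilament genes lay the other way, with differences of 1.39 (SE 0.11) for Ina and 1.20 (SE 0.12) for Nefh. Tubb3, the neuronal beta-tubulin, was at 40.2 and 42.8 RPKM in the beta and 2.45 and 2.92 RPKM in the delta libraries, a difference of 3.53 (SE 0.10, adjusted p = 5.01e-06) towards beta cells.

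Of 31 tested genes of Wnt, BMP and Notch signalling, 19 were called higher in delta and 9 higher in beta cells. The BMP ligands of the list that passed were on the delta side. Bmp3 was at 25.6 and 28.6 RPKM in the delta and 0.103 and 0.0680 RPKM in the beta libraries. Bmp6 was at 6.14 and 4.86 RPKM in the delta and 0.0244 and 0.0232 RPKM in the beta libraries, and Bmp7 and Bmp2 differed by -1.55 (SE 0.16) and -0.97 (SE 0.12). Bmp3 and Bmp6 were near 0 in the beta libraries and differed by -4.69 (SE 0.14) and -2.66 (SE 0.13). Bambi, a decoy receptor, was at 20.5 and 23.5 RPKM in the delta and 4.12 and 3.40 RPKM in the beta libraries. This inhibitor was higher in delta cells too, with a difference of -2.27 (SE 0.14). Bmp1, which is a protease and no BMP ligand, was at 19.9 and 22.0 RPKM in the beta and 2.21 and 2.41 RPKM in the delta libraries, a difference of 2.73 (SE 0.12) towards beta cells. Some ligands, receptors and known targets of BMP signalling were thus called higher in delta cells, as were 32.0% of all genes tested. Whether BMP signalling itself differed was not tested. In the Wnt group Wnt4 and the receptor Fzd7 were higher in beta cells, Fzd7 by 1.57 (SE 0.12), and the inhibitor Sfrp5 was higher in delta cells, with a difference of -1.68 (SE 0.23). The Notch ligand Jag2 was at 9.18 and 8.32 RPKM in the beta and 1.20 and 1.30 RPKM in the delta libraries, a difference of 2.11 (SE 0.12), and its paralogue Jag1 differed by -0.62 (SE 0.12).

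Imprinted genes, which are expressed from 1 parental copy in at least some tissues, were called higher in delta cells in 23 and higher in beta cells in 6 of 37 tested, with a median of -1.08. The values do not separate the parental copies. The cell-cycle inhibitor Cdkn1a, 1 of the 6, is not imprinted. Peg10, a gene derived from a retrotransposon (chromosome 6, 4747306 to 4760517), was at 50.6 and 80.2 RPKM in the delta and 0.141 and 0.159 RPKM in the beta libraries. Sgce, which encodes a sarcoglycan and lies head to head with it (4674350 to 4747207), was at 7.22 and 9.37 RPKM in the delta and 0.0610 and 0.0211 RPKM in the beta libraries. Both were below 0.2 RPKM in beta cells, with differences of -5.81 (SE 0.16, adjusted p = 3.7e-06) and -3.15 (SE 0.14, adjusted p = 1.63e-05). Mest, on the same chromosome (30723547 to 30748465), was at 55.7 and 63.5 RPKM in the delta and 0.448 and 0.496 RPKM in the beta libraries, a difference of -5.36 (SE 0.10, adjusted p = 2.32e-06). Its neighbour Copg2 (30747554 to 30896794), whose annotation overlaps its end, was at 18.7 and 20.0 RPKM in the delta and 18.2 and 19 RPKM in the beta libraries and was not called (adjusted p = 0.652). With the deposited RPKM Copg2 was called higher in delta cells, with a difference of -0.45. In the Dlk1 and Meg3 region of chromosome 12, the protein-coding Dlk1 (109452823 to 109463336) was at 16.2 and 19.8 RPKM in the delta and 0.739 and 1.93 RPKM in the beta libraries, and the non-coding Meg3 (109541001 to 109571726) at 97.7 and 63.2 RPKM in the delta and 7.68 and 9.84 RPKM in the beta libraries. They differed by -3.07 (SE 0.15) and -3.04 (SE 0.22), and the non-coding Rian and Mirg further along by -1.16 (SE 0.18) and -0.80 (SE 0.15). Zim1, Peg3 and Usp29, which lie together on chromosome 7 (6671269 to 6967219), differed by -3.39 (SE 0.14), -1.81 (SE 0.18) and -1.13 (SE 0.12). Against this side, Ddc, which makes dopamine and serotonin from their precursors, was at 94.0 and 107 RPKM in the beta and 6.36 and 7.87 RPKM in the delta libraries, a difference of 3.65 (SE 0.10).

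Of 11 tested retinoid genes 6 were called higher in delta and 3 higher in beta cells. Besides Rbp4, Ttr, its partner in plasma, was at 488 and 586 RPKM in the delta and 281 and 245 RPKM in the beta libraries. Bco1, which cleaves carotene to retinal, was at 11.5 and 13.3 RPKM in the delta and 5.39 and 4.18 RPKM in the beta libraries. The receptor Rxra was higher in beta cells, by 0.87 (SE 0.10), and the receptor Rarg was higher in delta cells, with a difference of -0.79 (SE 0.11). Of 12 tested genes that beta cells are known to keep low, 8 were called higher in delta and 3 higher in beta cells. In 2 of the 12 the male library was at least 2-fold above the female one in both groups. Acot7, an acyl-CoA thioesterase, was at 4.10 and 6.50 RPKM in the delta and 0.277 and 0.211 RPKM in the beta libraries. Oat, ornithine aminotransferase, was at 6.16 and 5.41 RPKM in the delta and 1.26 and 1.27 RPKM in the beta libraries. Both were low in the beta libraries, with differences of -2.32 (SE 0.17) and -1.58 (SE 0.11).

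Immediate early genes, which many stimuli induce within minutes, were called higher in delta cells in 18 and higher in beta cells in 6 of 26 tested, with a median of -1.09. Jun was at 179.8 and 141 RPKM in the delta and 35.5 and 44.1 RPKM in the beta libraries. Ier2 was at 142 and 117 RPKM in the delta and 37.6 and 40.5 RPKM in the beta libraries. Arc was at 34.0 and 17.7 RPKM in the delta and 3.12 and 4.35 RPKM in the beta libraries. Nr4a1 was at 60.6 and 26.3 RPKM in the delta and 7.78 and 9.20 RPKM in the beta libraries. Egr1 was at 230.3 and 130.3 RPKM in the delta and 16.0 and 38.6 RPKM in the beta libraries. In these 5 genes the male delta library was the highest of the 4 and both delta libraries were above both beta libraries, with differences of -1.98 (SE 0.16), -1.70 (SE 0.14), -2.45 (SE 0.27), -2.12 (SE 0.29) and -2.75 (SE 0.44). Egr3 was listed at 0 in both beta libraries and was at 2.37 and 1.07 RPKM in the delta libraries. Among the 6 on the beta side, Nr4a2, a paralogue of Nr4a1, differed by 1.15 (SE 0.14) and Ier5 by 1.50 (SE 0.18). Cells were dissociated before the sort, and its part in these values was not tested.

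Markers of macrophages and lymphocytes were nearly all higher in the beta libraries, 12 of the 13 that passed the filter of 18 listed, with a median of 2.90. Members at or near 0 in the delta libraries passed the filter through the beta libraries alone, so they had to come out higher there. With no filter 15 of 17 were called higher in beta cells, with a median of 2.07. The list summed to 291 and 281 RPKM in the beta and 70.7 and 85.3 RPKM in the delta libraries. Cd74, the invariant chain of class II molecules, was at 92.0 and 84.5 RPKM in the beta and 2.57 and 2.51 RPKM in the delta libraries. H2-Aa, a class II chain, was at 26.0 and 21.0 RPKM in the beta and 0.224 and 0.341 RPKM in the delta libraries. Lyz2, a lysozyme of macrophages, and Tyrobp, their signalling adaptor, were listed at 0 in both delta libraries and were at 7.39 and 9.14 and at 5.01 and 8.33 RPKM in the beta libraries. The pools were close for these genes, so both beta libraries were high. The exception was C1qa, at 52.8 and 70.0 RPKM in the delta and 44.3 and 46.4 RPKM in the beta libraries, a difference of -0.42 (SE 0.12, adjusted p = 0.0211), which was not called without delta replicate 2, without the block, with no filter or with the 4 libraries alone. Its neighbour C1qc was at 3.57 and 4.43 RPKM in the beta and 0 and 0.0601 RPKM in the delta libraries, on the side of C1qb. Ptprc, Adgre1 and Itgam, further markers of such cells, did not pass the filter, and Cd3e was listed at 0 in all 4 libraries. The part of macrophages in the beta sort was not tested.

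Acinar markers were called higher in beta cells in 12 and higher in delta cells in 1 of 18 tested, but these calls rest on the male beta library. Ctrb1, a chymotrypsinogen, was at 4352 and 154 RPKM in the beta and 242 and 143 RPKM in the delta libraries. Pnlip, a lipase, was at 1067 and 36.1 RPKM in the beta and 42.7 and 23.8 RPKM in the delta libraries. In each the male beta library was far above the other 3, which lay close together. Ctrb1 was not called (adjusted p = 0.0817), and Pnlip, which was called, lost its call in 7 of the alternatives, without beta replicate 1 and without the block among them. Without beta replicate 1 the counts were 1 and 2, and without the block 1 and 1. Cela1, an elastase, was at 1966 and 64.2 RPKM in the beta and 208 and 237 RPKM in the delta libraries, so it was higher in beta cells in the male pool and higher in delta cells in the female pool. Bhlha15 (MIST1), a factor of secretory cells, was at 24.1 and 37.8 RPKM in the beta and 13.7 and 14.3 RPKM in the delta libraries and did not follow that pattern, with a difference of 1.06 (SE 0.15, adjusted p = 0.00152). Of 11 tested ductal markers 4 were called higher in beta and 5 higher in delta cells, and without delta replicate 2 the counts were 5 and 4, without delta replicate 1 2 and 4, and with the deposited RPKM 2 and 5. Tspan8, a tetraspanin, was at 274 and 244 RPKM in the delta and 15.3 and 11.0 RPKM in the beta libraries. Krt7, a keratin, was at 133 and 101 RPKM in the beta and 40.3 and 39.0 RPKM in the delta libraries. Of 21 markers of endothelial, mesenchymal and glial cells 4 passed the filter, and the list summed to between 7.40 and 15.9 RPKM in each library.

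**Figure D5:**
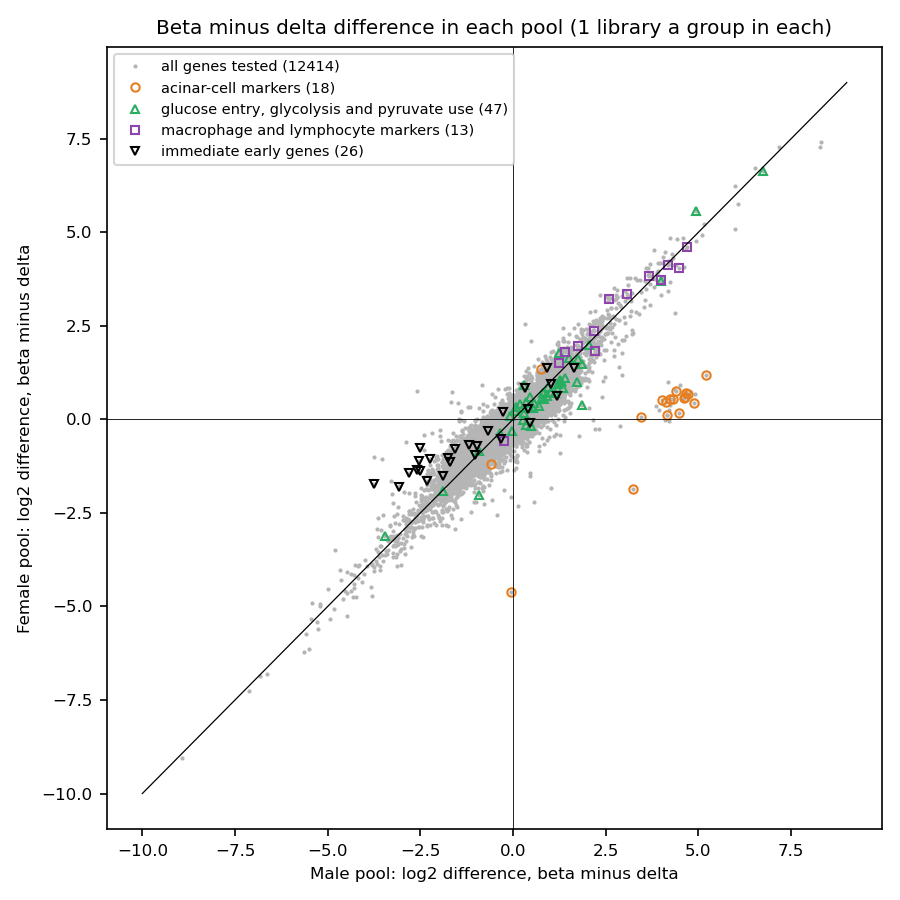
Difference between the beta and the delta library of the male pool (horizontal axis) against that of the female pool (vertical axis), log2 of (rescaled RPKM + 1), for 12414 genes (grey) and 4 lists (coloured symbols); the diagonal marks equal differences. The pools correlate at r = 0.915 across genes, macrophage markers lie close to the diagonal, and most acinar markers lie above 3 in the male and below 1.5 in the female pool.

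Several classes of non-coding transcripts leaned to delta cells, while protein-coding genes were level. Of 10958 protein-coding genes 3526 were called higher in beta and 3342 higher in delta cells, with a median of 0.03. Of 178 long intergenic non-coding RNAs 34 were called higher in beta and 80 higher in delta cells. Non-coding RNAs of bidirectional promoters did not lean, with 8 and 7 of 35, nor did processed pseudogenes, with 38 and 37 of 112. Of 77 small nucleolar RNA genes 2 were called higher in beta and 44 higher in delta cells, with a median of -0.89, and of 61 microRNA loci 4 and 36, with a median of -1.14. Such short genes are poorly captured in libraries of polyadenylated RNA, and reads of their host transcripts may be counted on them. Of 11 mitochondrial transfer RNA genes 8 were called higher in beta cells and 0 higher in delta cells, with a median of 1.24. Counts by gene type were made with the main scaling only.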

How the data were processed

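Gene expression was measured by RNA-seq in 6 libraries, 2 each of beta, delta and double-positive cells sorted by FACS and prepared with a TruSeq kit, per the labels' protocols. The values are RPKM as deposited by the authors in 1 table. The submitters' processing notes name STAR 2.5, featureCounts and edgeR 3.14.0, and no source used here gives the strand setting of the counting. Positions and gene types come from GENCODE (GRCm38), and promoter sequences from RefSeq (GRCm38.p6).

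The RPKM were divided by median-of-ratios factors over genes above 0 in all 6 libraries (0.788 and 0.874 in the beta and 1.12 and 1.10 in the delta libraries), since insulin RNA fills the beta libraries. Of 46959 rows, 27 whose symbol had become a date were dropped. The test took genes with at least 1 RPKM in 2 of the 4 beta and delta libraries and was run on log2(rescaled RPKM + 1) with limma 3.58.1 (R 4.3.3), moderated towards a mean-variance trend, with the group and the pool as terms over all 6 libraries, 2-sided, with Benjamini-Hochberg adjustment at 0.05. The pool was a block because the labels place the sorted fractions of 1 sex in the same pool. Deviations of libraries of the same pool from their group means correlated at 0.26, 0.51 and 0.46 for the 3 pairs of groups. The fit was also run on simulated data, with independent noise of the spread that the fit itself had estimated. Such a run checks the code and not the p-values.

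No count model was fitted, because RPKM are normalized values. Steps in the low values gave relative depth: 83.3% to 86.4% of values under 50 reads were whole multiples of 1 read within 0.01, too few to rebuild counts.

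The gene lists and the genes considered were chosen with earlier results of these data known, and no list was tested as a set. Genes were named when they were among the 15 with the largest difference in either direction whose libraries did not overlap, members of a list, among the 10 most abundant of a group, or on in 1 group and off in the other. Alternatives were no block, the 4 libraries alone, no rescaling, 75th percentile scaling, pseudocounts of 0.1 and 0.01, no filter, a filter of 5 RPKM, no trend, and each library left out in turn. Some members of the lists are counted but not reported here by name.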

Additional observations from a re-analysis of the deposited data

Results flagged for a closer look

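In 2 of the genes named above, the 2 pools gave differences of opposite direction. With 1 library of each group in a pool, this contrast between the pools was not tested. Cela1, the acinar elastase, was higher in beta cells by 3.23 on the log2 scale in the male pool, and the female pool gave a difference of -1.87. Cacna1d, an L-type calcium channel, gave -0.15 in the male pool and 0.56 in the female pool.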

How the results depend on the processing

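Leaving out 1 library at a time gave 2447 to 4123 genes called higher in beta cells and 3015 to 4145 called higher in delta cells, and the lowest count in each direction came without delta replicate 1. With the deposited RPKM the counts were 1663 and 6122, of which 21.4% were on the beta side, against 49.0% with rescaling, and 40.2% with 75th percentile scaling (3045 and 4532). The median difference over all genes was -0.36 and -0.11 under these 2 scalings. Without the replicate block 3571 and 3805 genes were called, and every other count over all genes stayed within 1.5 times that of the report. Of the 235 named genes that were called, 221 kept the call in every setting that tested them. Of the named genes not called, 5 kept their direction and were called with the deposited RPKM, and 2 with 75th percentile scaling. The signs that turned were those of Cacna1d (-0.19 with the deposited RPKM, -0.11 to 0.52 over the libraries left out), Cela1 (-1.23 to 2.60 over the libraries left out), Pcsk2 (-0.27 with the deposited RPKM), and Copg2 (0.0030 with no filter). Among the lists, the deposited RPKM gave 3 calls higher in beta and 29 higher in delta cells for imprinted genes and 6 and 27 for cyclic AMP genes. With no filter the counts were 17 and 17 for nutrient receptors, 5 and 14 for transmitter genes and 1 and 1 for acinar markers, which gave 6 and 1 with a pseudocount of 0.1. Without beta replicate 1 the median of the exocytosis genes was 0.03. The cause was not tested. With 2 libraries a group, differences of genes near 0 rest on few reads.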
